A study of Mus musculus with 10 samples.

Results

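Transcripts of 8 adhesion molecules that immune cells meet on the surface of a target cell were followed across 3 kinds of mouse cells: Icam1, Icam2, Vcam1, Alcam, Ncam1, Cd24a, Cd9 and Cd44. The members were taken by name, and each was read from the transcript cluster with exactly 1 gene symbol and, where a gene had more than 1 such cluster, the highest mean over all arrays. All 8 of 8 listed genes could be measured, among 22180 genes tested. Cd44, Ncam1 and Cd24a were highest in hepatocyte-like cells made from embryonic stem cells, Alcam was high in those cells and in adult hepatocytes, Icam1 was highest in embryonic stem cells, Cd9 was lowest in adult hepatocytes, Icam2 was near the dim level in all 3 kinds and Vcam1 was uneven among the hepatocyte-like arrays.

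The samples were 4 arrays of undifferentiated embryonic stem cells (mESC), 3 of hepatocyte-like cells differentiated from embryonic stem cells (ES_HLC) and 3 of hepatocytes from adult liver (Ad_Hep). All 10 carry 1 strain label, C.FVB-Tg(CAG-luc, GFP)L2G85Chco with the suffix /FathJ, which names a transgene in which the broadly active CAG promoter drives luciferase and green fluorescent protein, and all 10, the adult hepatocytes included, are labelled as under passage 20. No label gives an age, a differentiation protocol, a clone or a pooling of animals, and none says that the numbered biological replicates came from separate cultures or animals, so a p-value here reflects only how much these samples vary, which may be technical. The study, by its title, asked how NKG2D, a receptor by which natural killer cells sense stressed targets, serves to recognise and kill stem cell-derived hepatic cells. These genes bear on the adhesion of such cells, and protein on the cell surface was not measured.

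A natural killer cell or T cell kills only after it has attached to its target. Icam1 and Icam2 are immunoglobulin superfamily proteins bound by the leukocyte integrin LFA-1, Vcam1 is bound by the integrin VLA-4, and Alcam binds CD6 on T cells. Icam1 and Vcam1 are classical targets of NF-kB signalling after tumour necrosis factor or interleukin-1, and in liver both are known from sinusoidal endothelium and inflamed tissue. Ncam1 is a homophilic adhesion molecule that can carry polysialic acid, Cd24a a small glycosylated lipid-anchored protein that binds P-selectin and Siglecs, Cd9 a tetraspanin that organises integrins in the membrane, and Cd44 the main receptor for the matrix polysaccharide hyaluronan.

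The promoter windows of 4 of the 8 genes were found in the RefSeq table of the GRCm38.p6 build, and 3 are shown because these genes passed the test between hepatocyte-like and stem cells. Each holds the 250 bases before the start that the promoter table uses, 5′ to 3′ on the gene's strand. For Cd44 that start lies inside the annotated gene, which begins at position 102901669 on the minus strand, so the last bases of its window belong to the gene. Capitals mark matches on either strand to 5 motifs: NF-kB (GGG and CC with any 5 bases between), a palindromic NF-kB form (GGAANTTCC), AP-1 (TGANTCA), Sp1 (GGGCGG) and the TATA box (TATAAA). The palindromic form was added after the Icam1 window had been seen.
Icam1, chr9:21015690-21015939, plus strand: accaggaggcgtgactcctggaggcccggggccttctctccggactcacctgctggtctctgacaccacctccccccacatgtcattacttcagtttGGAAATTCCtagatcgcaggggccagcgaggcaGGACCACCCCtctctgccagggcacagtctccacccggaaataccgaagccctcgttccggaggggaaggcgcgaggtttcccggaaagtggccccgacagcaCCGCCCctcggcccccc
Alcam, chr16:52453082-52453331, minus strand: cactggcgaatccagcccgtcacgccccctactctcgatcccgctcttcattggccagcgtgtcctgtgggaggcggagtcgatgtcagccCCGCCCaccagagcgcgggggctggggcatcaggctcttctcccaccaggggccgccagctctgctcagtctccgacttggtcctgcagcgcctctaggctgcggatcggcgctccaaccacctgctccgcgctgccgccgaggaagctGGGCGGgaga
Cd44, chr2:102901666-102901915, minus strand: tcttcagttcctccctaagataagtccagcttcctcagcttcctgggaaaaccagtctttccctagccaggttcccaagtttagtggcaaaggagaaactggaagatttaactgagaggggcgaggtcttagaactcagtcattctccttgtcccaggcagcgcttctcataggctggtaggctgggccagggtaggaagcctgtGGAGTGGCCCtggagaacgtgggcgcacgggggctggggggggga

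The Icam1 window held the palindromic NF-kB form, at positions -153 to -145 from the start, where -1 is the last base before it. That form stood in 0.813% of all 32851 windows of this length. The looser NF-kB pattern matched in the Icam1 and Cd44 windows and in 45.8% of all windows, so that a match says little. Sp1 matched in the Icam1 window and at 2 places in the Alcam window, and in 32.7% of all windows. Neither AP-1 (6.75% of all windows) nor the TATA box (12.4%) matched in these 3 windows, and no marked matches overlapped. The Alcam window was rich in G and C, at 69.2% with 22 CG pairs, against 56.4% and 5 in the Cd44 window and medians of 52.4% and 6 over all windows. These are matches of letters, and binding was not measured.

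All levels below are the deposited log2 values, in which a step of 1 is a doubling, and a level can be compared between arrays but not between genes. Array medians lay between 4.91 and 5.07, and levels under 5.5 are called dim. The floor differs between probes, since the muscle regulator Myog read 6.12 to 7.09 on the adult arrays, so a fold against a dim level is uncertain and may be understated. Of 8 stem cell markers 7 averaged 5.5 or more on the mESC arrays (all but Dppa5a), 4 on the ES_HLC arrays and 1 on the Ad_Hep arrays. Of 8 hepatocyte markers 8 did so on the Ad_Hep arrays, 5 on the ES_HLC arrays and 3 on the mESC arrays. On the ES_HLC arrays albumin, Alb, stood at 4.85, 5.14 and 10.80 in replicates 1, 2 and 3, and Nanog at 5.08, 5.09 and 7.12. The hepatocyte marker Cyp2e1, at 5.21, 5.33 and 6.83, reached 5.5 only in replicate 3, as Alb did. Replicate 3 thus stood apart in some adult and some stem cell transcripts, and the results that change without it are given beside it. In replicates 1, 2 and 3 the mean of the 8 hepatocyte markers was 5.66, 6.30 and 7.74. That of the 8 stem cell markers was 5.09, 5.06 and 6.09. Not all markers followed, since Apoa1, Ttr and Fgb were highest in replicate 2 (7.97, 10.44 and 7.99) and Esrrb in replicate 1 (5.23). The summary level (mean log2) of 9 stellate cell and fibroblast markers was 9.72, 8.81 and 7.69 on ES_HLC replicates 1, 2 and 3, against 5.19 to 5.48 on mESC and 6.37 to 6.41 on Ad_Hep arrays. That of 10 endothelial markers was 7.07 to 7.19 on Ad_Hep arrays, 5.26 to 5.44 on mESC and 5.21 to 5.73 on ES_HLC arrays. In such bulk samples fewer cells of a type and less RNA per cell cannot be told apart.

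A gene was called, and is said to have risen or fallen, at an adjusted p under 0.05 (limma, Benjamini-Hochberg over all 22180 genes) with a log2 difference of at least 1. Between ES_HLC and mESC 5 of the 8 genes were called, 4 higher and 1 lower, where 16.0% of all genes were called (8.61% higher and 7.35% lower). Between Ad_Hep and mESC 6 were called, 2 higher and 4 lower, against 26.6% of all genes (2443 higher and 3450 lower). Between ES_HLC and Ad_Hep 4 were called and all 4 were higher in ES_HLC, against 23.0% of all genes (13.9% higher and 9.12% lower). These comparisons share arrays and are not independent of each other.

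**Figure D1:**
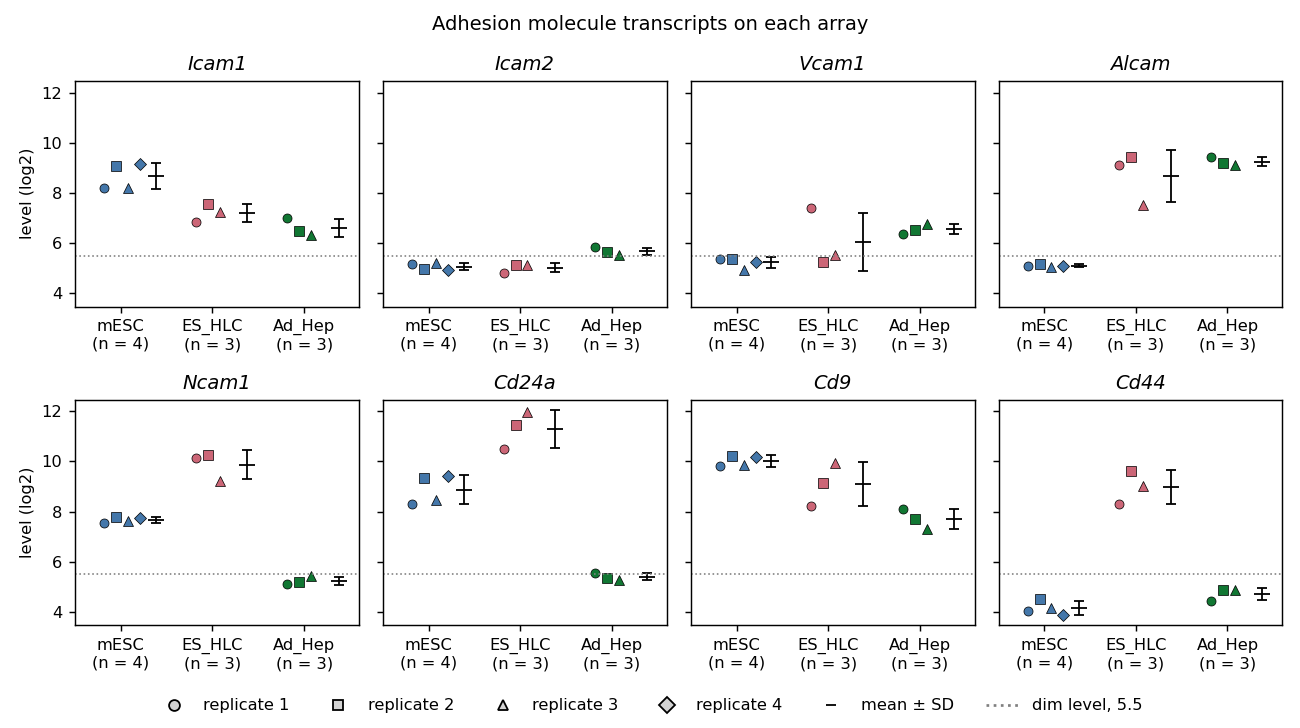
Level (log2) of the 8 genes on every array, with 1 panel a gene, symbols for replicates, group means with SD beside the points and a dotted line at 5.5. The ES_HLC points lie above all others for Ncam1, Cd24a and Cd44, and Vcam1 is high on 1 ES_HLC array at 7.39.

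Icam1, the main LFA-1 ligand of non-blood cells, was highest in embryonic stem cells. It read 8.22, 9.09, 8.22 and 9.14 on the 4 mESC arrays, 6.85, 7.54 and 7.24 on the ES_HLC arrays and 7.01, 6.50 and 6.31 on the Ad_Hep arrays. The mESC arrays lay above all others, with replicates 2 and 4 above replicates 1 and 3, and the ranges of ES_HLC and Ad_Hep overlapped. Icam1 fell by 1.46 ± 0.28 (log2 difference ± SE) from mESC to ES_HLC, a 2.74-fold difference (limma, adjusted p = 0.00154). It was lower in Ad_Hep than in mESC by 4.17-fold, at -2.06 ± 0.28 (limma, adjusted p = 4.67e-05). Between ES_HLC and Ad_Hep the difference was 0.60 ± 0.30 (95% interval -0.04 to 1.25, adjusted p = 0.142), which did not pass. The order was therefore mESC above both hepatic kinds, whose own order was not settled.

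Icam2, an LFA-1 ligand known mainly from endothelium and leukocytes, was at or near the dim level on every array. It read 5.15, 4.96, 5.20 and 4.92 in mESC, 4.81, 5.14 and 5.12 in ES_HLC and 5.84, 5.63 and 5.54 in Ad_Hep. The Ad_Hep arrays lay just above all others, and the other kinds overlapped. The excess of Ad_Hep was 0.61 ± 0.16 over mESC (adjusted p = 0.00653), below the minimum difference of 1 and so not called, and ES_HLC stood at -0.65 ± 0.17 against Ad_Hep (adjusted p = 0.00831). Between ES_HLC and mESC the difference was -0.04 ± 0.16, with a 95% interval of -0.38 to 0.30. On the Ad_Hep arrays 9 of 10 endothelial markers averaged 5.5 or more, against 3 in mESC and 4 in ES_HLC. Among the 9 were Stab2 at 7.28 to 8.19 and Clec4g at 8.62 to 9.15. Pecam1, also among them, was lower in Ad_Hep (7.21 to 7.33) than in mESC (9.25 to 9.87). The summary level of 8 Kupffer cell and macrophage markers was 6.21 to 6.39 on Ad_Hep arrays. It was 4.73 to 4.88 on mESC and 4.59 to 4.83 on ES_HLC arrays. Of these 8, 5 averaged 5.5 or more in Ad_Hep, 1 in mESC and 2 in ES_HLC. Among the 5, Clec4f read 6.89 to 7.35 in Ad_Hep. Cd68, also among the 5, went the other way, at 6.97 to 7.18 in Ad_Hep, 9.17 to 9.69 in mESC and 7.19 to 8.62 in ES_HLC. The pan-leukocyte gene Ptprc read 4.27 to 4.66 in Ad_Hep and 2.95 to 3.51 elsewhere. The part of these cell types in the Icam2 level was not tested.

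Vcam1, the VLA-4 ligand, differed more within the hepatocyte-like group than between the kinds. Its levels were 5.36, 5.36, 4.93 and 5.26 in mESC, 7.39, 5.25 and 5.51 in ES_HLC and 6.35, 6.53 and 6.76 in Ad_Hep. ES_HLC replicate 1 lay above every other array, replicate 2 lay inside the mESC range and replicate 3 just above it. Vcam1 was higher in Ad_Hep than in mESC by 1.32 ± 0.39, which is 2.50-fold (limma, adjusted p = 0.0161). That call was lost without Ad_Hep replicate 3, at 1.21 with an adjusted p of 0.0648. Neither ES_HLC against mESC (0.82 ± 0.39, 95% interval -0.04 to 1.68, adjusted p = 0.155) nor ES_HLC against Ad_Hep (-0.50 ± 0.42, 95% interval -1.41 to 0.42, adjusted p = 0.403) passed.

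Single arrays decided both of these last values. Against mESC the Vcam1 difference was 0.15 without ES_HLC replicate 1 and was called without replicate 2, at 1.22 (limma, adjusted p = 0.0398). Against Ad_Hep it was called lower without ES_HLC replicate 1, at -1.17 (limma, adjusted p = 8.01e-04). ES_HLC replicate 1 also had the highest fibroblast marker level, 9.72, with Pdgfrb at 9.34 against 6.95 and 7.68 in replicates 2 and 3. Pdgfrb was picked from the 9 markers of that list. Col1a1, Col1a2, Col3a1, Postn and Dcn were also highest in replicate 1, but lowest in replicate 3. Acta2 (12.54, 12.57 and 11.44 in replicates 1, 2 and 3), Des (7.69, 7.94 and 6.83) and Lrat were highest in replicate 2. In Ad_Hep the summary level of 10 endothelial markers was 7.07 to 7.19, and the stellate cell gene Lrat read 7.74 to 8.24, against 3.97 to 4.66 elsewhere. Lrat was picked from the 9 stellate cell and fibroblast markers, and not all of them followed it. Des was lower in Ad_Hep (5.18 to 5.45) than in mESC (6.17 to 7.09). Col1a1 overlapped between these kinds, at 5.91 to 6.32 in Ad_Hep and 6.18 to 6.44 in mESC. The part of these cell types in the Vcam1 levels was not tested.

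Alcam, the CD6 ligand, was dim in stem cells and high in both hepatic kinds. It read 5.09, 5.16, 5.05 and 5.10 in mESC, 9.11, 9.45 and 7.51 in ES_HLC and 9.46, 9.20 and 9.10 in Ad_Hep. ES_HLC replicates 1 and 2 lay inside the adult range and replicate 3 below it, while every hepatic array lay above every stem cell array. Alcam rose by 3.59 ± 0.35 from mESC to ES_HLC, 12.0-fold (limma, adjusted p = 7.61e-06). In Ad_Hep it was higher than in mESC by 4.15 ± 0.35, 17.8-fold (limma, adjusted p = 6.08e-07). Between ES_HLC and Ad_Hep the difference was -0.56 ± 0.37 (95% interval -1.37 to 0.25, adjusted p = 0.280), and without ES_HLC replicate 3 it was 0.03. ES_HLC replicate 3, with the least Alcam, had the most albumin, and Serpina1c, Cyp2e1, Cps1 and Tat were also highest there. Apoa1, Ttr and Fgb were instead highest in replicate 2, the ES_HLC array with the most Alcam. Any link between these hepatocyte markers and Alcam was not tested.

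Ncam1, known as CD56 and as a marker of neural and immature hepatic and biliary cells, separated all 3 kinds. It read 7.52, 7.79, 7.64 and 7.73 in mESC, 10.15, 10.26 and 9.20 in ES_HLC and 5.12, 5.17 and 5.41 in Ad_Hep. No groups overlapped, and the adult arrays were all dim. Ncam1 rose by 2.20 ± 0.23 from mESC to ES_HLC, 4.59-fold (limma, adjusted p = 1.35e-05). It was lower in Ad_Hep than in mESC, at -2.44 ± 0.23 (limma, adjusted p = 1.68e-06), and higher in ES_HLC than in Ad_Hep by 4.64 ± 0.24 (limma, adjusted p = 7.80e-09). The summary level of 5 cholangiocyte markers followed the same order, at 6.90 to 7.71 on ES_HLC arrays, 5.55 to 5.72 on mESC and 4.74 to 4.88 on Ad_Hep arrays. Single markers of that list did not all follow it. Epcam was highest in mESC (8.96 to 9.12), then ES_HLC (7.54 to 8.57) and Ad_Hep (3.48 to 4.05). Sox9 was higher in Ad_Hep (6.33 to 6.83) than in mESC (5.12 to 5.73). The summary level of 7 early hepatic markers was 7.92 to 8.66 in ES_HLC and 5.51 to 5.89 in mESC, and in Ad_Hep, where Ncam1 was dim, it was 8.22 to 8.34. That of 8 neural markers was 5.5 to 5.67 in ES_HLC, 5.44 to 5.56 in mESC and 4.80 to 4.99 in Ad_Hep. Single neural markers differed in direction between ES_HLC and mESC. The progenitor filament gene Nes read 8.33, 7.53 and 6.51 in ES_HLC, 5.81 to 5.98 in mESC and 4.50 to 5.37 in Ad_Hep. Sox1 went the other way, at 4.49 to 4.68 in ES_HLC and 5.70 to 6.04 in mESC. Tubb3 read 6.83, 7.80 and 9.36 in ES_HLC and 7.89 to 8.42 in mESC. The part of these cell types in the Ncam1 level was not tested. A further cluster that Ncam1 shares with Gm11149 was dim on all arrays, between 4.22 and 5.48, and was not used.

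Cd24a was high in hepatocyte-like cells, lower in stem cells and at the dim level in adult hepatocytes. It read 8.28, 9.35, 8.45 and 9.41 in mESC, 10.48, 11.47 and 11.97 in ES_HLC and 5.56, 5.36 and 5.27 in Ad_Hep. The 3 kinds did not overlap, and in mESC replicates 2 and 4 were again the higher. Cd24a rose by 2.43 ± 0.35 from mESC to ES_HLC, 5.40-fold (limma, adjusted p = 1.83e-04). Against the near-dim level of Ad_Hep it stood 5.91 ± 0.37 higher in ES_HLC, 60.3-fold (limma, adjusted p = 4.70e-08), and 4.82 higher with both Cd24a clusters averaged. It was 11.2-fold lower in Ad_Hep than in mESC, at -3.48 ± 0.35 (limma, adjusted p = 3.08e-06).

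A second Cd24a cluster, lower in signal, gave the same order of the 3 group means. It read 6.52, 7.98 and 9.60 in ES_HLC replicates 1, 2 and 3, 6.03 to 6.89 in mESC and 4.17 to 4.45 in Ad_Hep. Replicate 1 there lay inside the mESC range, and with p adjusted over all 41345 clusters its difference from mESC was 1.56 ± 0.55 (limma, adjusted p = 0.0702), which did not pass. Its difference from Ad_Hep was called, at 3.72 ± 0.59 (limma, adjusted p = 5.84e-04).

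Cd9, the tetraspanin, ran from stem cells down to adult hepatocytes. It read 9.81, 10.23, 9.85 and 10.19 in mESC, 8.22, 9.14 and 9.95 in ES_HLC and 8.09, 7.69 and 7.29 in Ad_Hep. ES_HLC replicate 3 lay inside the mESC range, and replicate 1 lay 0.14 above the highest adult array. Cd9 was lower in Ad_Hep than in mESC by 5.05-fold, at -2.34 ± 0.33 (limma, adjusted p = 6.82e-05). It was higher in ES_HLC than in Ad_Hep by 1.42 ± 0.35, 2.68-fold (limma, adjusted p = 0.00656). Between ES_HLC and mESC the difference of -0.92 ± 0.33 did not pass (95% interval -1.64 to -0.20, adjusted p = 0.0563).

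Where the hepatocyte-like cells stood between the other kinds depended on replicates 1 and 3. Without replicate 1 the difference from mESC came to -0.47 (limma, adjusted p = 0.258) and that from Ad_Hep to 1.86 (limma, adjusted p = 2.76e-04). Without replicate 3 Cd9 was called lower in ES_HLC than in mESC, at -1.34 (limma, adjusted p = 0.00378), and the difference from Ad_Hep came to 0.996, just under the minimum (limma, adjusted p = 0.0224). A second Cd9 cluster was dim on all arrays, between 4.44 and 5.13. When both clusters were averaged the differences were 0.54 for ES_HLC against Ad_Hep (limma, adjusted p = 0.0579) and -1.11 for Ad_Hep against mESC (limma, adjusted p = 3.75e-04).

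Cd44, the hyaluronan receptor, was present in hepatocyte-like cells and dim in both other kinds. It read 4.04, 4.52, 4.14 and 3.88 in mESC, 8.28, 9.63 and 9.02 in ES_HLC and 4.43, 4.85 and 4.86 in Ad_Hep. Every ES_HLC array lay at least 3.42 above the highest array of the other kinds. Cd44 rose by 4.83 ± 0.28 from mESC to ES_HLC, 28.4-fold (limma, adjusted p = 8.97e-08), and was 19.2-fold higher in ES_HLC than in Ad_Hep, at 4.26 ± 0.29 (limma, adjusted p = 1.15e-07). Ad_Hep and mESC overlapped and did not pass against each other (0.57 ± 0.28, 95% interval -0.03 to 1.16, adjusted p = 0.126). Of 9 stellate cell and fibroblast markers, 8 averaged 5.5 or more in ES_HLC, 7 in Ad_Hep and 4 in mESC. Their summary level was 9.72, 8.81 and 7.69 on ES_HLC replicates 1, 2 and 3, where Cd44 read 8.28, 9.63 and 9.02. It was 6.37 to 6.41 on Ad_Hep and 5.19 to 5.48 on mESC arrays. The part of these cell types in the Cd44 level was not tested.

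**Figure D2:**
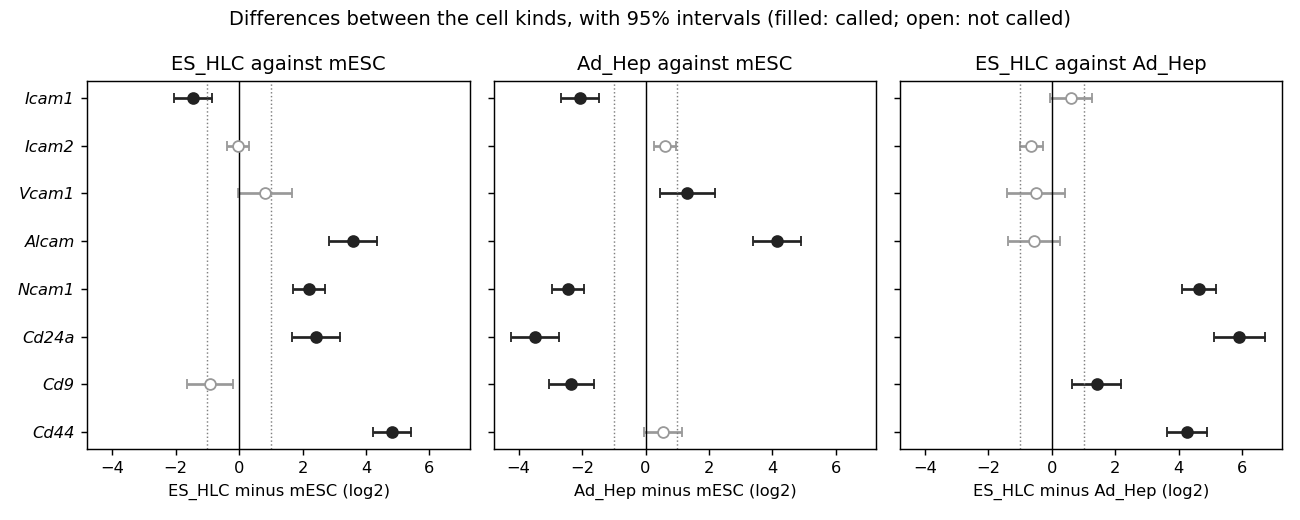
Log2 difference of each gene in the 3 comparisons, with 95% intervals from the fit, filled where called, and dotted lines at a difference of 1 either way. Alcam is called against mESC in both hepatic kinds, and Ncam1, Cd24a, Cd9 and Cd44 are called higher in ES_HLC than in Ad_Hep.

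Set side by side, 3 of the 8 genes (Ncam1, Cd24a and Cd44) were called higher in hepatocyte-like cells than in both other kinds, which 4.77% of all genes were, and 0 were called lower than both, which 1.10% were. On every ES_HLC array these 3 genes lay above all mESC and Ad_Hep arrays. Over the 8 genes, replicate 1 lay above both other kinds for 4, replicate 2 for 3 and replicate 3 for 3. Replicates 2 and 3 each lay inside the mESC range for 2 genes, and replicate 1 for none. The arrays of the 2 groups did not overlap for 5 of the 8 genes between ES_HLC and mESC (34.6% of all genes), for 7 between Ad_Hep and mESC (46.9%) and for 5 between ES_HLC and Ad_Hep (45.1%).

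The 8 genes varied more between ES_HLC arrays than most genes. Their median SD was 0.72 in ES_HLC, against 0.24 over all genes, and 7 of 8 lay above that median. In mESC and Ad_Hep their median SD was 0.21 and 0.19, against 0.21 and 0.22 over all genes. Cd24a and Cd9 were both lowest in ES_HLC replicate 1 and highest in replicate 3, while Alcam and Ncam1 were lowest in replicate 3. The fibroblast marker level was highest in replicate 1 and lowest in replicate 3, and its part in this spread was not tested.

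**Figure D3:**
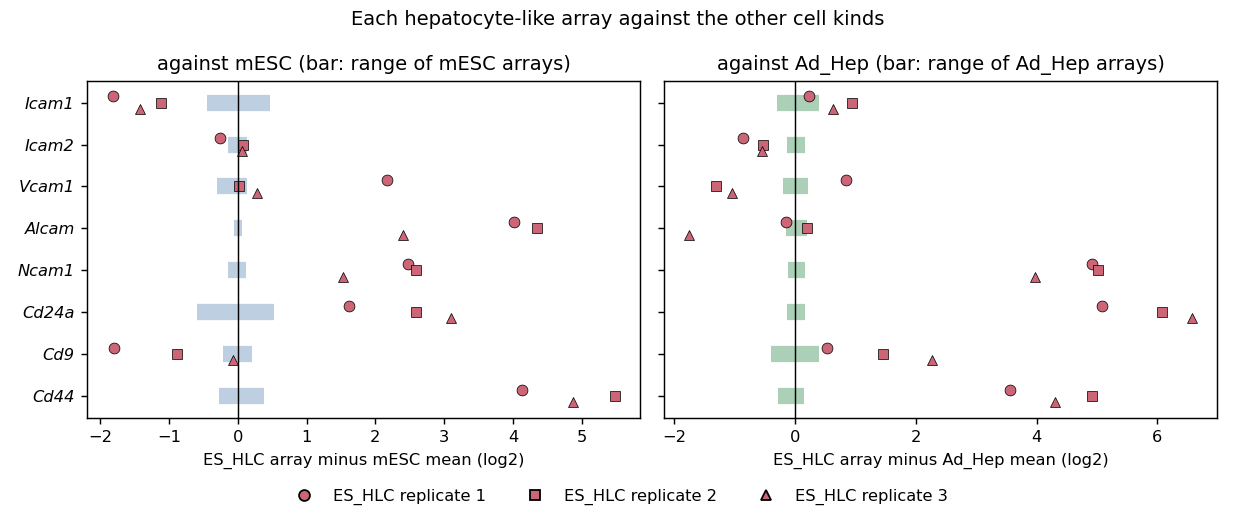
Level of each ES_HLC array minus the mean of the mESC arrays (left) or of the Ad_Hep arrays (right), in log2, with bars for the range of those arrays. Vcam1 in replicate 1 stands 2.16 above the mESC mean while replicates 2 and 3 stand within 0.28 of it.

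Genes that act with these molecules were compared as lists. Of all genes, 16.0% were called for ES_HLC against mESC (8.61% higher and 7.35% lower). For Ad_Hep against mESC it was 26.6% (2443 higher and 3450 lower of 22180), and for ES_HLC against Ad_Hep 23.0% (13.9% higher and 9.12% lower). The median differences over all genes were -0.01, 0.05 and -0.04 in these 3 comparisons. List counts and medians are to be read beside these values. Without single arrays, the number of genes called higher or called lower in a list moved by at most 1, except where a larger move is given beside the list. Among 13 measured integrins, selectins and other receptors that bind them, 3 rose from mESC to ES_HLC and 0 fell (median 0.01, against -0.01 over all genes). Itgb1, the shared beta chain of many integrins, rose by 3.34 ± 0.15 (limma, adjusted p = 1.59e-08), and Itga4, which with Itgb1 forms VLA-4, rose by 2.74 ± 0.56 (limma, adjusted p = 0.00235). Itga4 read 8.39 in ES_HLC replicate 1, the array with the most Vcam1, against 5.65 and 5.28 in replicates 2 and 3. Without that replicate the rise of Itga4 was 1.76 (limma, adjusted p = 1.95e-04), and its excess over Ad_Hep was 1.33 (limma, adjusted p = 0.00146). Itga9 rose by 1.04 ± 0.20, and was not called without ES_HLC replicate 1 (0.84) or mESC replicate 2 (0.97). The subunits of LFA-1 were dim or nearly so, with Itgal at 5.75, 4.88 and 5.68 and Itgb2 at 5.22, 5.22 and 5.98 in mESC, ES_HLC and Ad_Hep. Between Ad_Hep and mESC 1 of the 13 rose, Itgb1 (1.23 ± 0.15), and between ES_HLC and Ad_Hep 2 were higher, Itga4 (2.30 ± 0.60) and Itgb1 (2.11 ± 0.16).

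Other adhesion molecules, 20 of the immunoglobulin superfamily with Epcam and Cd99l2, which are not of that family, moved both ways, with 4 of 22 rising and 3 falling from mESC to ES_HLC (median 0.06). Without ES_HLC replicate 1 the number rising was 7. Cd47, the signal that restrains phagocytes, rose by 3.91 ± 0.15, the junction protein F11r by 1.76 ± 0.33 and Cd99l2, a relative of CD99, by 1.60 ± 0.17. Jam2 (-4.16 ± 0.18), Pecam1 (-3.07 ± 0.19) and Jam3 (-1.13 ± 0.22) fell, Jam3 coming to -0.91 without ES_HLC replicate 2. Between Ad_Hep and mESC 5 rose and 6 fell (median -0.02, against 0.05 over all genes), the largest being Cd47 (4.27 ± 0.15) and the epithelial adhesion molecule Epcam (-5.28 ± 0.23). Epcam, Mcam and Bcam led the 5 that were higher in ES_HLC than in Ad_Hep, at 4.40 ± 0.25, 3.45 ± 0.42 and 3.39 ± 0.30, and 1 was lower, Ncam2 (-1.31 ± 0.17), a paralog of Ncam1 that was dim in both. The number higher was 7 without ES_HLC replicate 1.

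Tetraspanins and partners of Cd9 rose in 7 of 20 and fell in 2 from mESC to ES_HLC (median 0.63, against -0.01 over all genes). Tspan12 rose by 3.05 ± 0.30, Tspan6 by 2.24 ± 0.18 and Tspan9 by 1.94 ± 0.31, and Cd37 (-1.43 ± 0.28) and Tspan13 (-1.11 ± 0.18) fell. Between Ad_Hep and mESC 6 rose and 6 fell. Tspan12 was 5.93 ± 0.30 higher in Ad_Hep, and the endosomal tetraspanin Cd63 was lower, at -4.19 ± 0.22. Against Ad_Hep, ES_HLC had 8 higher and 3 lower, led by Tspan6 (5.25 ± 0.19), Cd63 (4.95 ± 0.23) and, below, Tspan12 (-2.88 ± 0.32).

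Around Cd44, genes of hyaluronan and its binding partners rose in 3 of 14 and fell in 0 from mESC to ES_HLC (median 0.32). They were the hyaluronan synthase Has2 (4.16 ± 0.26; limma, adjusted p = 1.69e-07), the link protein Hapln1 (3.94 ± 0.53) and the hyaluronan-binding proteoglycan Vcan (2.64 ± 0.32). Has2 read 9.61, 8.72 and 8.22 in ES_HLC and between 4.47 and 4.80 on all other arrays, so it was high in the same kind of cells as Cd44. Within ES_HLC the orders differed, with Cd44 at 8.28, 9.63 and 9.02 in replicates 1, 2 and 3. The other synthases did not pass, with Has1 at -0.07 ± 0.17 and Has3 at 0.18 ± 0.21. In Ad_Hep the receptors of sinusoidal endothelium Stab2, Stab1 and Lyve1 were higher than in mESC, by 3.35 ± 0.20, 2.46 ± 0.21 and 1.18 ± 0.26, while Hmmr, Vcan and Cemip2 were lower, so that 3 of 14 rose and 3 fell. Higher in ES_HLC than in Ad_Hep were 5, led by Vcan (5.16 ± 0.35), Has2 (4.27 ± 0.27) and Hmmr (3.92 ± 0.49), and 2 were lower, Stab2 and Stab1.

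A list of 7 proteases that shed surface proteins, 3 inhibitors of such proteases, 6 linkers to the cytoskeleton and 2 splicing regulators had 10 of 18 rising from mESC to ES_HLC and 0 falling (median 1.39, against -0.01 over all genes). Those that rose were 5 proteases, 2 inhibitors, 2 linkers and 1 splicing regulator. The inhibitors Timp3 and Timp2 rose by 4.67 ± 0.29 and 4.25 ± 0.21, and Mmp14, a protease that cleaves Cd44, rose by 3.76 ± 0.26. Between Ad_Hep and mESC 4 rose, led by the splicing regulator Esrp2 (2.86 ± 0.36), and 6 fell, led by Timp1 (-4.42 ± 0.28) and the Cd44 linker Ezr (-3.30 ± 0.32). Between ES_HLC and Ad_Hep 13 of 18 were higher (median 1.54, against -0.04 over all genes), made up of 5 proteases, 3 inhibitors, 4 linkers and 1 splicing regulator. The inhibitor Timp1 was higher by 4.84 ± 0.30 and the linker Msn by 3.74 ± 0.18, and Esrp2 alone was lower (-2.0 ± 0.38).

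Of the NF-kB, interferon and cytokine receptor genes upstream of Icam1 and Vcam1, 5 of 20 rose and 1 fell from mESC to ES_HLC (median 0.51). The receptors led, with Ifngr1 at 2.64 ± 0.28, Il1r1 at 2.12 ± 0.37 and Tnfrsf1a at 2.11 ± 0.18, while the NF-kB subunit Relb fell by 1.23 ± 0.21. The same receptors were higher in Ad_Hep than in mESC (Il1r1 3.43 ± 0.37, Ifngr1 2.14 ± 0.28, Tnfrsf1a 1.98 ± 0.18) and Relb was lower (-1.87 ± 0.21), with 9 of 20 rising and 1 falling (median 0.70). The number rising was 7 without Ad_Hep replicate 1, Ad_Hep replicate 3 or mESC replicate 1. Against mESC, Icam1 was lower in both hepatic kinds, and Vcam1 was called higher in Ad_Hep and not called in ES_HLC. Any link between the receptors and these levels was not tested. Between ES_HLC and Ad_Hep 2 were higher, Nfkb2 (1.39 ± 0.23) and Tnfaip3 (1.12 ± 0.20), and 2 lower, Il1r1 (-1.30 ± 0.39) and Tnfrsf1b (-1.25 ± 0.24). The Il1r1 call rested on single arrays, since it was lost without ES_HLC replicate 3 (-0.83; limma, adjusted p = 0.0794), without ES_HLC replicate 1 (-1.24; limma, adjusted p = 0.0533) and without Ad_Hep replicate 1 (-1.11; limma, adjusted p = 0.0758). Tnfaip3 came to 0.93 without ES_HLC replicate 3.

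Of the genes that make, transport or attach sialic acid or attach fucose, 4 of 16 rose and 2 fell from mESC to ES_HLC (median 0.52), with 2 rising without mESC replicate 1 or 3. St6gal1 rose by 2.33 ± 0.18, Fut8 by 1.56 ± 0.26 and St8sia4, which polysialylates Ncam1, by 1.05 ± 0.36 (limma, adjusted p = 0.0462). The St8sia4 call rested on low levels, 6.21 in ES_HLC replicate 1 against 4.22 and 4.41 in replicates 2 and 3 and 3.81 to 3.96 in mESC. It was lost without ES_HLC replicate 1, at 0.42 (limma, adjusted p = 0.0784), and without any single mESC or Ad_Hep array (limma, adjusted p from 0.0592 to 0.0944). St8sia6 (-1.44 ± 0.24) and St3gal4 (-1.28 ± 0.18) fell. The other Ncam1 polysialyltransferase, St8sia2, was higher in ES_HLC than in Ad_Hep by 1.03 ± 0.21 (under the minimum without Ad_Hep replicate 1, at 0.84, or ES_HLC replicate 2, at 0.85) and stood at 0.87 ± 0.19 against mESC, under the minimum. Between Ad_Hep and mESC 6 rose, led by St6gal1 (3.94 ± 0.18), and 1 fell, and between ES_HLC and Ad_Hep 2 were higher and 4 lower, led by St3gal4 (-3.04 ± 0.19).

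**Figure D4:**
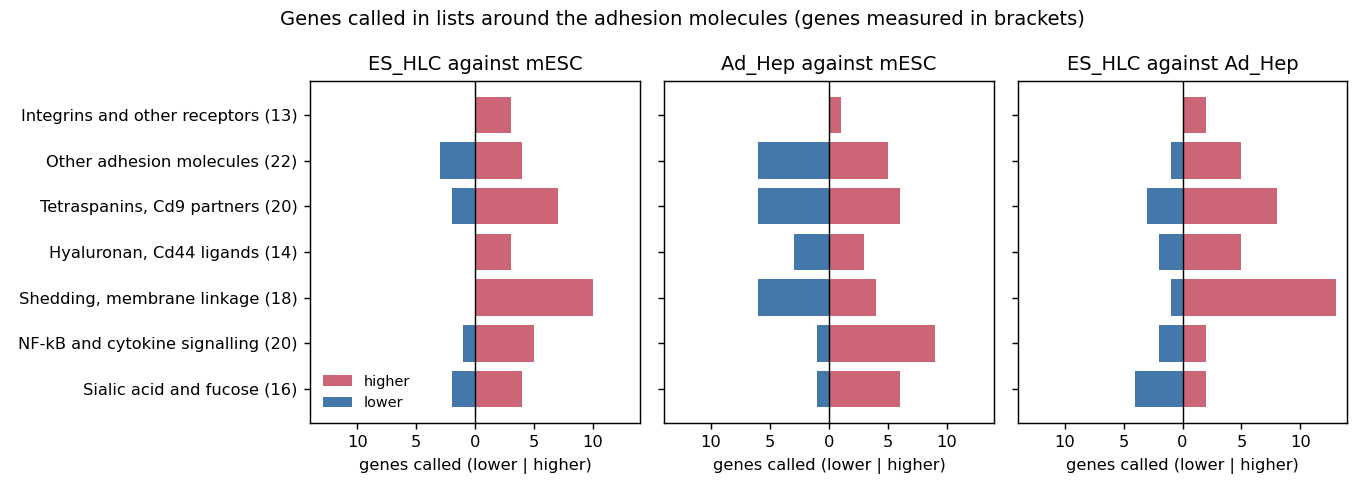
Number of genes called higher (right of 0) and lower (left of 0) in 7 lists of genes that act with the adhesion molecules, in the 3 comparisons, with the number measured in brackets. The list on shedding and membrane linkage has 10 of 18 higher in ES_HLC than in mESC and 13 of 18 higher in ES_HLC than in Ad_Hep.

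For each gene the most similar profiles over the 10 arrays were sought among 7447 genes whose group means spanned at least 1. These correlations (Pearson's r, n = 10 arrays) describe profiles that are set mainly by the 3 kinds of cells and are not tests. Cd44 was most like Tgfb2 (0.995) and Itga3 (0.993), both near 10 in ES_HLC and low in the other kinds, at group means of 9.53 and 10.34 against 4.86 and 6.25 in mESC. Ncam1 was most like Fstl1 (0.994) and Smurf1 (0.991), and Cd24a most like Csnk1e (0.993) and Atxn10 (0.992). Alcam was most like Egfr (0.992) and Clu (0.989), which were also lower in mESC, at 5.84 and 6.52, than in ES_HLC (9.58 and 10.80) and Ad_Hep (10.40 and 11.24). Icam1 was most like Elf3 (0.988), at 9.16, 5.74 and 4.44 in mESC, ES_HLC and Ad_Hep, and Kctd6 (0.983). Cd9 was closest to Chfr (0.987) and Ctnnal1 (0.981), Icam2 to Ccpg1 (0.976) and Mkx (0.973), and Vcam1 to Cygb (0.960) and Hgf (0.950).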

How the data were processed

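The deposited values, 1 table of 41345 transcript clusters by 10 arrays, are log2 levels made by the authors. Tools named in the submitters' processing notes, with no role, are Transcriptome Analysis Console, R 3.3.1, oligo 1.38.0 and RMA. For the build and the summarisation level the entry is: not given in the sources used here. Their range shows the values to be log2. Scanner files were not used here, so no probe was tested against its background. Precision is limited by the number of arrays.

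The platform annotation gave 23521 clusters 1 symbol, 1814 several symbols and 16010 none. Of a gene's clusters (1082 genes had more than 1) that with the highest mean was kept. Groups came from the sample titles. Limma 3.58.1 in R 4.3.3 (lmFit, eBayes, 2-sided) was fitted to 22180 genes over all 10 arrays with 3 group means (7 residual degrees of freedom, prior 5.34) and tested on simulated data. The members, lists and rules were chosen with earlier results of these data known. The text names all members, up to 3 called genes each way per list, and the 2 genes most like each member (clones, predicted models, small RNAs and pseudogenes left out), and beside these some list genes and markers chosen after their values were seen. Promoter windows were RefSeq's (GRCm38.p6), cut to the 250 bases before the start; protein sequences were not used here. Python 3.11.15 with matplotlib 3.10.9 drew the figures. Alternatives are given in the closing section.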

Additional observations from a re-analysis of the deposited data

Results flagged for a closer look

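In groups of 4 arrays, 2 of 62 sets of values (the 8 adhesion genes and the list genes named by rule, in embryonic stem cells) held 1 array far from the other 3, and chance gives about 1 in 20. Esrp2 read 6.44 in mESC replicate 1, against 6.97 to 7.06 on the other 3 arrays. Timp3 read 4.60 in mESC replicate 2, against 5.03 to 5.08. None of the 8 adhesion genes had such an array in the stem cells, and groups of 3 were not checked this way.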

How the results depend on the processing

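The count of the 8 genes called stayed at 5 or 6 for ES_HLC against mESC, 5 to 7 for Ad_Hep against mESC and 3 to 5 for ES_HLC against Ad_Hep over 22 alternatives each. Over all genes, dropping the minimum difference raised the calls from 3540 to 6390, from 5893 to 9205 and from 5106 to 8003. Of 480 values for single genes, 469 kept direction and side of the threshold. The sign turned for values that were not called: Icam2 in ES_HLC against mESC at 0.071 without ES_HLC replicate 1 and 0.01 without mESC replicate 3 (range without single arrays -0.10 to 0.071), and Alcam in ES_HLC against Ad_Hep at 0.028 without ES_HLC replicate 3 (range without single arrays -0.94 to 0.028). Calls of Vcam1 and Cd9 changed. Beside the changes given with these genes, Cd9 was called lower in ES_HLC than in mESC with array weights (-1.09; limma, adjusted p = 0.0154) and not called in ES_HLC against Ad_Hep after cyclic loess (0.999; limma, adjusted p = 0.0353). The adjusted p of Vcam1 ranged over all alternatives from 0.0398 to 0.679, from 4.72e-05 to 0.0648 and from 8.01e-04 to 0.885 in the 3 comparisons, and that of Cd9 from 0.00378 to 0.258, from 3.42e-06 to 7.69e-04 and from 2.76e-04 to 0.0579. The cause was not tested. Same-numbered arrays share only a number (correlations of their deviations from the group means ran from -0.185 to 0.137, and not every array was closest to its own number). With the replicate number as a block 3518, 5926 and 5103 genes were called, and no call of the 8 genes changed. Leaving out each array in turn was also tried, after seeing the data, for the 92 differences of list genes named by rule, and 84 stayed called and moved by at most 1.5 times.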

Other observations

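Among embryonic stem cells, arrays 1 and 3 resembled each other and so did arrays 2 and 4. Over all genes the deviations from the group mean correlated at 0.246 for arrays 1 and 3 and at 0.256 for arrays 2 and 4, against -0.702 to -0.579 for the other 4 pairs (across genes, which are not independent replicates). Deviations from a shared mean cancel within each gene, so such correlations lean negative by construction. The levels themselves correlated at 0.990 for each of the 2 like pairs and at 0.974 to 0.983 for the other 4. Icam1 and Cd24a were higher on arrays 2 and 4, as was the tetraspanin Tspan9 (6.31 and 6.24, against 5.18 and 5.21), while the cell division gene and hyaluronan receptor Hmmr was lower there (7.52 and 7.66, against 9.12 and 8.84). Nothing in the labels separates these arrays. Tspan9 and Hmmr were picked with their values in view.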
